A study of Mus musculus with 9 samples.

Results

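To see how the cytokine and chemokine genes of stroma were marked in oviductal muscle in early pregnancy, peaks of 2 histone marks were collected around 10 genes, namely *Il6*, *Lif*, *Cxcl1*, *Cxcl5*, *Cxcl12*, *Ccl2*, *Ccl7*, *Il1r1*, *Il33* and *Csf1*. They were picked by name out of 21853 protein-coding genes, and every peak that met a gene body or the 50 kb on either side of it was taken. This gave 87 to 151 peaks per replicate list, each counted once. The data came from ChIC-Seq, where chromatin is cut beside a bound antibody by MNase joined to protein A. The cells were primary oviductal muscle cells, taken on D2 of pregnancy from mice of WT genotype that were 8 to 12 weeks old. All groups shared this genotype, day and culture, and differed only in the antibody, with 3 libraries each for H3K27ac, H3K4me1 and control IgG. Cells were freed by enzymes, filtered and held in dishes for some hours before fixation, and 50000 cells entered a library. No label says whether the replicates came from separate animals, so the p-values given here measure only the spread between lists, which may be technical.

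H3K4me1 is laid down at enhancers and around promoters, whether or not they are in use, and H3K27ac is added where they are active. A region with both marks is commonly read as an active enhancer. Stromal and smooth muscle cells make several of these factors under the control of NF-κB, AP-1 and C/EBP proteins, and the factors draw in and sustain white blood cells. IL-6 and LIF signal through the shared receptor chain gp130, the CXC and CC chemokines through G protein–coupled receptors, and IL-1 and IL-33 through receptors that use MYD88. Peaks show where a mark was enriched, and not whether a gene was transcribed. Fewer cells with a mark and less of it per cell cannot be told apart in these bulk samples.

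Of the 10 genes, *Il1r1* alone was marked at both of its promoters in all 6 replicate lists. *Cxcl5* was marked in all 6 as well, at its only promoter. *Csf1* and *Il6* had H3K27ac in every replicate and H3K4me1 in only 1 and 2 of 3. *Ccl2*, *Ccl7* and *Il33* showed the reverse, with H3K4me1 in every replicate and H3K27ac in 2 of 3. *Lif* and *Cxcl12* were marked at a promoter in 1 of the 6 replicate lists, and *Cxcl1* in 3. Outside promoters, regions with both marks lay mainly in the *Il1r1* gene body, upstream of *Cxcl1* and *Cxcl5*, and around *Csf1*.

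Sequence is shown first for the promoters that set these patterns apart. These are *Il1r1* (both marks), *Csf1* and *Il6* (H3K27ac in every replicate), *Cxcl1* (marked in some lists) and *Lif* (no peak at its first start). RefSeq promoters on GRCm38.p6 were matched for 7 of the 10 genes. Each line holds the 250 bases before the RefSeq start, which lay within 11 bases of the GENCODE start, on the coding strand and 5′ to 3′. Capitals mark matches, on either strand, to GGNNTTTCC for NF-κB, TTGCNNAA for C/EBP, TGACGTCA for the cyclic AMP response element (CRE) and TTCNNNGAA for STAT proteins. The AP-1 motif searched was TGANTCA. The TATA box was searched as TATAAA.

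Il1r1 promoter, chr1:40224830-40225079, plus strand: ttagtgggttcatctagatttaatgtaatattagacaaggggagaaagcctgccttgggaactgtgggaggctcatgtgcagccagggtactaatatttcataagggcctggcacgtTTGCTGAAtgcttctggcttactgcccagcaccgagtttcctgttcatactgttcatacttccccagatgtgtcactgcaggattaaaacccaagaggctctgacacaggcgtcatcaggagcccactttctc

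Csf1 promoter, chr3:107760470-107760719, minus strand: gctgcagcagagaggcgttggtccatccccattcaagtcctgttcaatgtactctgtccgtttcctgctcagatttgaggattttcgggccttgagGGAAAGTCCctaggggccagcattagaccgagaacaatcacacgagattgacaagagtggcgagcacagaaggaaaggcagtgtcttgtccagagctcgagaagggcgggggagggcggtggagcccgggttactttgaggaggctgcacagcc

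Il6 promoter, chr5:30012864-30013113, plus strand: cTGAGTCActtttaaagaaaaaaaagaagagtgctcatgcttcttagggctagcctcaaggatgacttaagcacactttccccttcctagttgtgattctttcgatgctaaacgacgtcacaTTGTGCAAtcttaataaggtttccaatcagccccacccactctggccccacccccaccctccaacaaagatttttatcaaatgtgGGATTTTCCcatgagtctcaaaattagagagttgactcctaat

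Cxcl1 promoter, chr5:90890995-90891244, plus strand: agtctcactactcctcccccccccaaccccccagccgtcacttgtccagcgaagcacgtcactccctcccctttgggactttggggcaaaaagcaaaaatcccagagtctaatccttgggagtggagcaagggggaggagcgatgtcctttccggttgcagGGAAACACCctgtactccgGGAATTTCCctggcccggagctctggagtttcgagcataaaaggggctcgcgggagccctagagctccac

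Lif promoter, chr11:4257318-4257567, plus strand: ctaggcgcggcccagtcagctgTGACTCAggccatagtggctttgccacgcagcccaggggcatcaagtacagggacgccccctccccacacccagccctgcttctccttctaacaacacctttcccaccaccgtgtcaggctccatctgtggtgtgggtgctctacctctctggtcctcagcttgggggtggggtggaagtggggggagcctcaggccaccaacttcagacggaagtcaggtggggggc

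The *Il6* stretch held an NF-κB, a C/EBP and an AP-1 match, from 43 to 35, 128 to 121 and 249 to 243 bases before the start. The *Cxcl1* stretch held 2 NF-κB matches, from 89 to 81 and 70 to 62 bases before its start, and *Csf1* held 1, from 154 to 146. *Il1r1* held 1 C/EBP match and *Lif* 1 AP-1 match. Of the stretches matched but not shown, *Cxcl12* held 0 matches and *Il33* 1, to the TATA box. No match overlapped another. Over 32536 distinct RefSeq promoter stretches of this length, 4.93% held the NF-κB letters, 6.73% AP-1, 9.57% C/EBP, 1.56% CRE, 7.04% STAT and 12.3% the TATA box. A match describes letters and is not evidence of binding.

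The middle 300 bases are also shown for the longest distal region with both marks near *Cxcl1*, *Cxcl5*, *Il1r1* and *Lif*, because peaks of all 6 replicate lists met each of these regions. The longest region at *Csf1* was also met by all 6, but lies mostly outside the window and inside *Ahcyl1*, so it is not shown. Its middle 300 bases held 0 matches. The stretches are printed on the plus strand, with the same motifs in capitals except the TATA box. A distal region overlapped no promoter of a protein-coding gene, and none of the 4 shown overlapped an exon.

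Cxcl1 distal region, chr5:90876877-90877176, plus strand: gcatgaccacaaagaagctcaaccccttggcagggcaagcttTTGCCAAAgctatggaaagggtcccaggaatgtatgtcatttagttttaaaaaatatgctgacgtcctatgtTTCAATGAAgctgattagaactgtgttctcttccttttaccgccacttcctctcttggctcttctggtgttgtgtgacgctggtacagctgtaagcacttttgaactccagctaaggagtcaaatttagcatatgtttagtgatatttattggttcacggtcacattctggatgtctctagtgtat

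Cxcl5 distal region, chr5:90754444-90754743, plus strand: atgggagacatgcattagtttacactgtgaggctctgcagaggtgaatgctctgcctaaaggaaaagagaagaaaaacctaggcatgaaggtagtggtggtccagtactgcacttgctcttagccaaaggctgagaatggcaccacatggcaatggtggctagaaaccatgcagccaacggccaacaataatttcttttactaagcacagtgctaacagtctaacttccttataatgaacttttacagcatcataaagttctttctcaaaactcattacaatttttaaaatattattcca

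Il1r1 distal region, chr1:40286692-40286991, plus strand: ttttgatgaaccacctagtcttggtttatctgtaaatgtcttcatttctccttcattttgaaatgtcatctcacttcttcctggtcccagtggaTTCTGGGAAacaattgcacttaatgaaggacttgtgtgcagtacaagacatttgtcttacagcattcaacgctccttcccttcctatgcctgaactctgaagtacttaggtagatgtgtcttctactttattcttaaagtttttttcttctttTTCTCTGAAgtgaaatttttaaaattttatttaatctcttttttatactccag

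Lif distal region, chr11:4302477-4302776, plus strand: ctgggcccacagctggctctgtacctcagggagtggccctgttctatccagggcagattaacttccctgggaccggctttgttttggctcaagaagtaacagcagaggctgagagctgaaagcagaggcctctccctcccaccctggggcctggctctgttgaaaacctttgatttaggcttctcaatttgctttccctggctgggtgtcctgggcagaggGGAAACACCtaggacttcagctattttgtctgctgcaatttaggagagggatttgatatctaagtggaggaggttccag

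The *Il1r1* stretch, within an intron, held 2 STAT matches. The *Cxcl1* stretch held 1 C/EBP and 1 STAT match, the *Lif* stretch 1 NF-κB match and the *Cxcl5* stretch none. Of the 26951 double-marked distal regions of at least 300 bases in the genome, the middle 300 bases held an NF-κB match in 4.27%, AP-1 in 13.8%, C/EBP in 15.0%, CRE in 0.230% and STAT in 10.9%.

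Per the file headers the H3K27ac and H3K4me1 libraries had 40551842 to 78891920 fragments and the IgG libraries 3110985 to 3713369. A replicate list held 93684 to 152889 peaks. These calls were permissive: only 7 to 22 peaks of a replicate list reached 1.3 in the deposited −log10 q-value column, which by the headers was not to be filled. H3K27ac replicate 1 was called against IgG 1, H3K27ac replicate 2 and H3K4me1 replicates 1 and 2 against IgG 2, and replicate 3 of each mark against IgG 3. Around the 10 genes the median fold enrichment, the authors' ratio of signal to local background with 1 added to each, was 1.54 to 1.67 in the replicate lists, and 11 to 34 peaks per list reached a −log10 p-value of 1.3. Markers of fibroblasts or stroma were marked at 7 to 8 of 8 promoters in each replicate list, against 4 to 8 of 8 for smooth muscle, and 53.0% to 55.3% of all genes in an H3K27ac and 41.5% to 45.4% in an H3K4me1 list. Of the smooth muscle genes, *Acta2*, *Des*, *Smtn* and *Synpo2* were marked in all 6 lists. *Myh11*, the myosin heavy chain that defines the type, had H3K27ac in 0 and H3K4me1 in 1 of 3 replicates, but a peak in both pooled lists. *Cnn1* and *Lmod1* each had H3K27ac in 1 of 3 replicates, and no peak in either pooled list. Epithelial markers reached 1 to 3 of 8, with *Epcam* and *Pax8* at 0 in every replicate list, and endothelial markers 2 to 5, with *Vwf* at 0. Leukocyte markers reached 2 to 3 of 8 for H3K27ac, with *Ptprc* and *Cd68* marked in all 3 replicates, and 0 for H3K4me1. The part of other cell types in the values of the 10 genes was not tested.

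H3K27ac marked a promoter in all 3 replicates at 4 of the 10 genes (*Il6*, *Cxcl5*, *Il1r1* and *Csf1*), beside 45.9% of all protein-coding genes. H3K4me1 did so at 5 (*Cxcl5*, *Ccl2*, *Ccl7*, *Il1r1* and *Il33*), beside 27.9%. Both marks were present in all 6 lists at 2, *Cxcl5* and *Il1r1*, beside 24.3%. None of the 10 lacked a promoter peak in every replicate list, beside 32.8% of all genes, but this rested on H3K27ac replicate 1: without it *Lif* and *Cxcl12* had none, 2 of the 10 beside 35.3%. With only peaks of −log10 p-value 1.3 or more *Lif*, *Cxcl12* and *Cxcl1* had none, 3 of the 10 beside 48.1%. A promoter here reached 1 kb to each side of any start of a protein-coding transcript. The lists differed in how many of the 10 they marked. H3K27ac replicate 1 marked 10, replicate 2 marked 7 and replicate 3 marked 5, with the shares of all genes given above. The H3K4me1 lists marked 7, 6 and 6 of the 10. Without H3K27ac replicate 3 the count for H3K27ac was 7, beside 49.1% of all genes, and that for both marks 5, beside 25%. With the p-value filter H3K27ac marked a promoter in all 3 replicates at 1 of the 10 (*Il1r1*), beside 30.2% of all genes, and H3K4me1 at 2 (*Il1r1* and *Ccl2*), beside 5.03%. *Il1r1* was then the single gene of the 10 marked in all 6 lists, beside 3.98%.

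**Figure D1:**
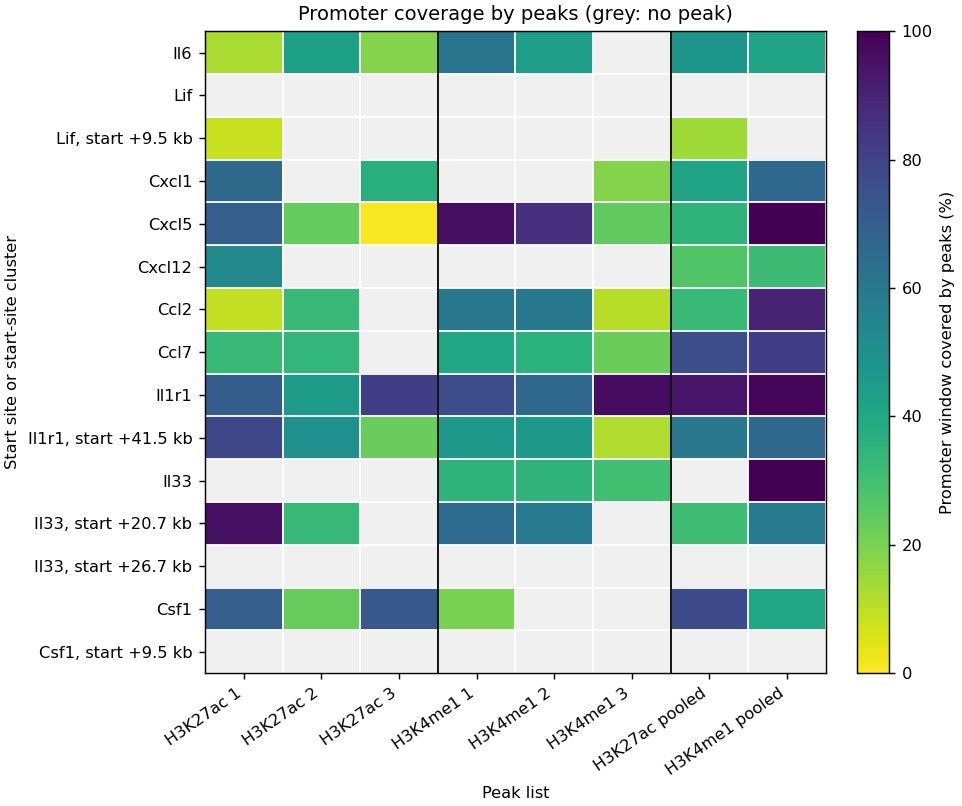
Share of each promoter window covered by peaks (colour, in %) for the start sites of the 10 genes (rows) in the 6 replicate and 2 pooled lists (columns), with grey where no peak lay. Both *Il1r1* rows are filled in all 8 lists, the first *Lif* row and the last *Il33* and *Csf1* rows are empty, and H3K27ac replicate 3 has the most grey among the H3K27ac lists.

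*Il6*, a gp130 cytokine of the acute phase, lies at chr5:30013114-30019981 on the plus strand. H3K27ac covered 283, 955 and 407 bp of its promoter window in replicates 1, 2 and 3, and H3K4me1 covered 1346, 976 and 0 bp. The H3K4me1 list without a peak was the one called against IgG 3. The printed 250 bases were covered whole by H3K4me1 replicates 1 and 2, for 28 and 10 bp by H3K27ac replicates 1 and 2, and not at all by H3K27ac replicate 3, whose peak lay farther upstream. Fold enrichment of the best promoter peak was 1.94, 1.64 and 1.57 for H3K27ac and 1.71 and 1.72 for H3K4me1. Around *Il6* no other promoter of a protein-coding gene and no distal region with both marks was found.

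*Lif*, the gp130 cytokine needed for implantation in mice, lies at chr11:4257557-4272514 on the plus strand. Its first promoter had no peak in any of the 8 lists. Its second start, 9538 bp downstream, was covered for 171 bp in H3K27ac replicate 1 and for 288 bp in the pooled H3K27ac list, and not in the other lists. The gene body was different. H3K4me1 covered 24.1%, 19.6% and 22.8% of it in replicates 1, 2 and 3, and H3K27ac covered 9.62%, 0% and 2.88%. Every H3K4me1 list thus lay above every H3K27ac list in the share covered, although peaks of both marks met there in places. The printed distal region, 1306 bp long at chr11:4301974-4303279 and 45069 bp downstream of the first start, was met by all 6 lists, with fold enrichments of 1.76, 1.81 and 1.94 for H3K27ac and 2.00, 1.95 and 1.89 for H3K4me1. No gene body overlapped it. *Osm*, a neighbour of the same cytokine family, was unmarked at its promoter in all 6 lists, and *Castor1*, beyond it, had H3K27ac in 2 replicates and H3K4me1 in 1.

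*Cxcl1*, a neutrophil chemokine, lies at chr5:90891241-90893115 on the plus strand. H3K27ac covered 1313, 0 and 743 bp of its promoter window and H3K4me1 covered 0, 0 and 371 bp in replicates 1, 2 and 3. The lists without a peak were the 3 called against IgG 2. The window held 8 distal regions with both marks, of which 4 were met by all 6 lists, and 6 lay between 24556 and 5834 bp upstream of the start. The longest ran for 2353 bp at chr5:90875850-90878202 and was covered for 2353, 2353 and 2353 bp by H3K27ac and for 2253, 2332 and 1541 bp by H3K4me1. Its fold enrichments were 1.89, 1.96 and 1.87 for H3K27ac and 1.90, 1.84 and 1.77 for H3K4me1. The next, 2043 bp long at chr5:90879796-90881838, had 1.89, 1.81 and 1.71 for H3K27ac and 1.83, 1.73 and 1.77 for H3K4me1. The start of *Cxcl1* was nearer to both regions than any other protein-coding start, although *Cxcl2* and *Mthfd2l* also start in the window. The region at chr5:90898380-90899693, met by all 6 lists as well, was nearest to the start of *Cxcl2*. *Mthfd2l* was marked in all 6 replicate lists. *Cxcl2* was marked in 1 of the 6, H3K4me1 replicate 3, and in both pooled lists.

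*Cxcl5*, another neutrophil chemokine of the same cluster, lies at chr5:90759360-90761624 on the plus strand. H3K27ac covered 1397, 474 and 16 bp of its promoter and H3K4me1 covered 1929, 1721 and 487 bp. The call in H3K27ac replicate 3 thus rested on 16 bp, and it was lost when 200 bp of a window had to be covered. A run of 4 distal regions with both marks lay from 8230 to 2976 bp upstream, 2 of them met by all 6 lists. The longest, of 1372 bp, is at chr5:90753908-90755279, with fold enrichments of 1.67, 1.62 and 1.62 for H3K27ac and 1.78, 1.74 and 1.73 for H3K4me1. Nearby, *Ppbp* and *Pf4*, chemokine genes of the platelet lineage, had no promoter peak in any list. *Cxcl3* had H3K27ac in 1 and H3K4me1 in 2 replicates, and *Cxcl15* H3K27ac in 2 and H3K4me1 in 0.

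*Cxcl12*, a chemokine made constitutively by stroma, lies at chr6:117168535-117181367 on the plus strand. Its promoter was covered for 1085 bp in H3K27ac replicate 1 and for 0 bp in the other 5 replicate lists. Pooled H3K27ac and H3K4me1 peaks covered 556 and 639 bp. H3K4me1 replicates held 8, 5 and 5 peaks in the window, all of them flanking, against 3, 3 and 2 for H3K27ac. The single distal region with both marks was 222 bp long, 8277 bp upstream at chr6:117160148-117160369, and H3K27ac replicate 1 did not cover it.

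*Ccl2* and *Ccl7*, monocyte chemokines, start at chr11:82035571 and chr11:82045712 on the plus strand, so that most of their windows and many of their peaks are shared. H3K4me1 covered 1201, 1193 and 218 bp of the *Ccl2* promoter and H3K27ac covered 184, 656 and 0 bp. At *Ccl7* H3K4me1 covered 817, 720 and 448 bp and H3K27ac 649, 676 and 0 bp. In both genes the H3K27ac list with no peak was replicate 3. The *Ccl7* promoter held the strongest H3K4me1 promoter peak of the 10 genes, with fold enrichment 2.72 and 16.9 times the mean coverage of the genome in replicate 1. It was near the top of that list, at the 100.0 percentile, and did not cover the start base itself. In replicates 2 and 3 its best peak had 2.12 and 1.70, at the 98.8 and 66.6 percentiles. All 4 distal regions with both marks lay upstream of *Ccl2*, 28654 to 1686 bp from its start, and each was missed by 1 of the H3K27ac replicates. The longest, of 886 bp at chr11:82011610-82012495, was covered whole by H3K27ac replicates 1 and 2 and for 0 bp by replicate 3, and for 886, 834 and 77 bp by H3K4me1. It thus received least from the lists called against IgG 3. *Ccl11*, an eosinophil chemokine next to *Ccl7*, had no promoter peak in any replicate list, and *Gm17268*, which starts between *Ccl2* and *Ccl7*, had H3K4me1 in 3 and H3K27ac in 0.

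*Il1r1*, the signalling receptor for IL-1, lies at chr1:40225080-40317257 on the plus strand, with a second start 41506 bp inside. At the first promoter H3K27ac covered 1413, 913 and 1631 bp and H3K4me1 covered 1531, 1331 and 1933 bp. At the second H3K27ac covered 1571, 995 and 459 bp and H3K4me1 covered 931, 933 and 235 bp. The best promoter peak of the gene had fold enrichment 1.97, 2.11 and 2.07 for H3K27ac and 1.90, 1.89 and 1.97 for H3K4me1, at the 89.2 to 96.1 percentiles of the lists. H3K4me1 covered 32.3%, 43.3% and 26.8% of the gene body and H3K27ac covered 16.1%, 24.1% and 9.88%, so that every H3K4me1 list lay above every H3K27ac list. Of 19 distal regions with both marks, 12 lay in the gene body, and 98.1% of protein-coding genes had fewer in their windows, which were not matched in length to this gene of 92178 bp. The longest, of 1801 bp at chr1:40285941-40287741, is intronic and 61761 bp from the first start. H3K27ac covered 550, 1801 and 1801 bp of it and H3K4me1 1801 bp in each replicate. The next, of 1587 bp at chr1:40288634-40290220, was covered for 1241, 1587 and 1242 bp by H3K27ac and for 892, 1587 and 1587 bp by H3K4me1. Of the 7 regions outside the gene body, 6 lay inside *Il1rl2*, the receptor gene that follows it, whose start was the nearest protein-coding one, and 1 of these was met by all 6 lists. *Il1rl2* had promoter peaks in 3 H3K27ac and 2 H3K4me1 replicates.

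*Il33*, an alarmin of the IL-1 family kept in the nucleus, lies at chr19:29925114-29960718 on the plus strand. At the first of its starts, H3K4me1 covered 709, 709 and 612 bp and H3K27ac covered 0 bp in each replicate. At the second, 20676 bp downstream, H3K27ac covered 1908, 650 and 0 bp and H3K4me1 covered 1305, 1167 and 0 bp, so that replicate 3 of neither mark reached it. The third start, 26702 bp downstream, had no peak in any list. H3K4me1 covered 28.6%, 23.4% and 12.1% of the gene body and H3K27ac covered 12.7%, 5.20% and 2.90%, with the lowest H3K4me1 value below the highest H3K27ac value. No distal region with both marks was found around *Il33*, and its one neighbour, *Trpd52l3*, had no promoter peak in any list.

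*Csf1*, the growth factor of macrophages, lies at chr3:107741048-107760469 on the minus strand. H3K27ac covered 1572, 525 and 1639 bp of its first promoter and H3K4me1 covered 452, 0 and 0 bp. The H3K27ac peaks there had fold enrichments of 2.10, 1.69 and 2.06 and 11.5, 12.9 and 13.9 times the mean coverage of the genome. The start 9490 bp downstream had no peak in any list. The printed 250 bases before the first start were covered whole by H3K27ac replicates 1 and 3 and for 0 bp by H3K27ac replicate 2 and every H3K4me1 replicate. Of 8 distal regions with both marks, 2 were met by all 6 lists. The longest, of 7677 bp at chr3:107685114-107692790, lies mostly outside the window and inside *Ahcyl1*, whose promoter was marked in all 6 lists. The other, of 1643 bp at chr3:107792729-107794371, is 33081 bp upstream of *Csf1*, with fold enrichments of 1.78, 1.80 and 1.76 for H3K27ac and 1.90, 1.95 and 1.67 for H3K4me1.

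**Figure D2:**
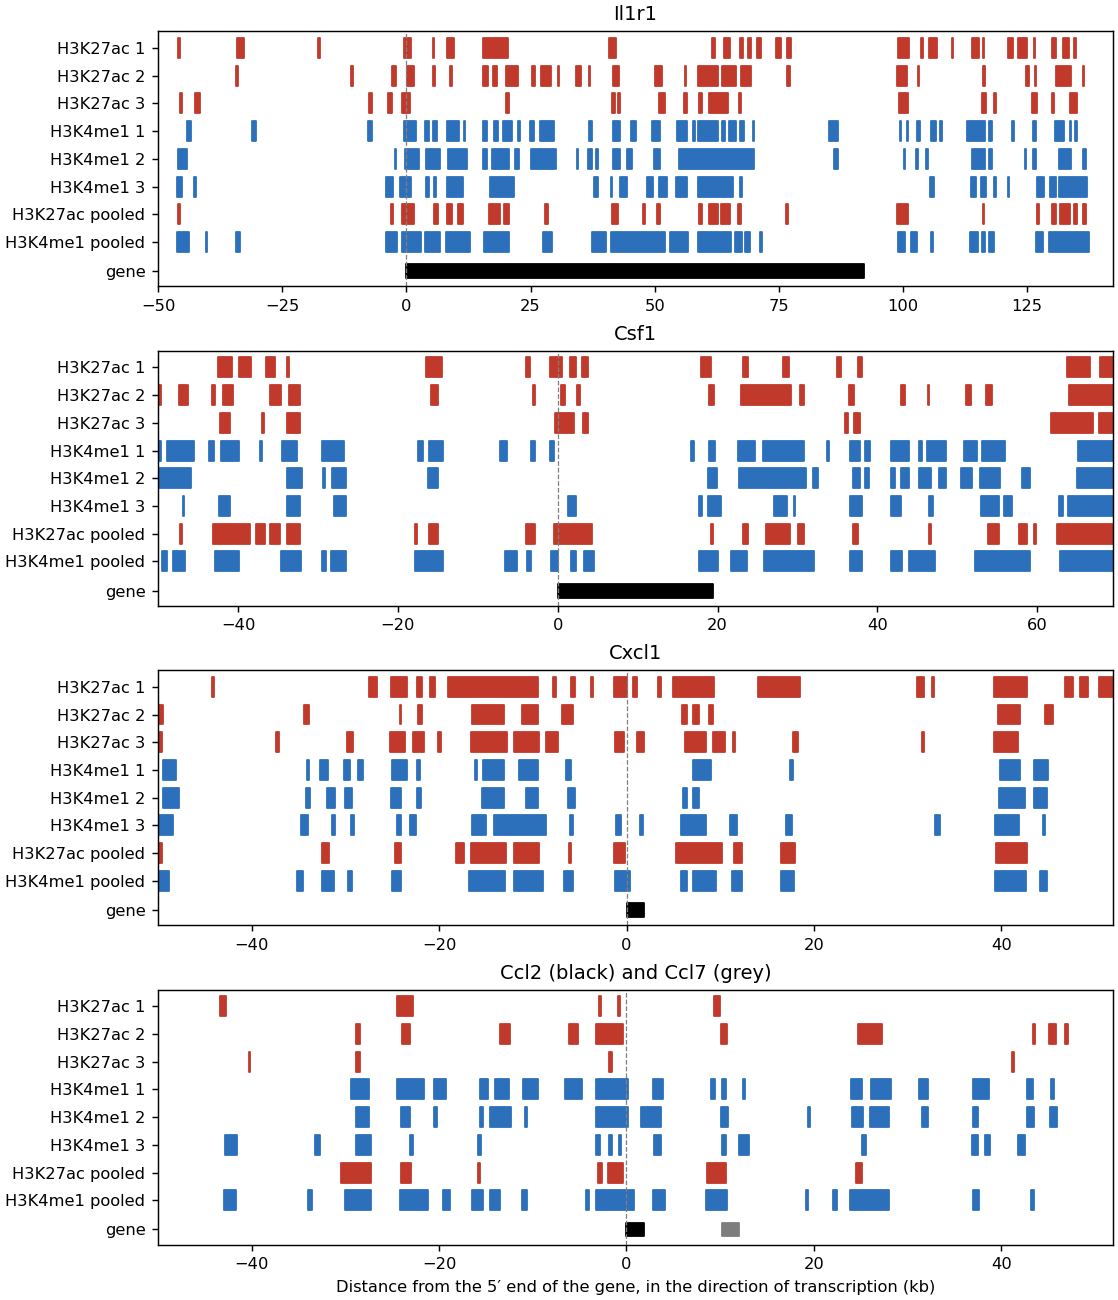
Peaks of H3K27ac (red) and H3K4me1 (blue) in the 8 lists around *Il1r1*, *Csf1*, *Cxcl1* and *Ccl2* with *Ccl7*, drawn to scale by distance from the 5′ end in kb, with the gene body as a bar and peaks cut at the window edge. Peaks of both marks recur within *Il1r1* and upstream of *Cxcl1*, H3K27ac replicates 1 and 3 cover the *Csf1* start, and around *Ccl2* the replicate lists hold 5, 10 and 4 H3K27ac and 18, 16 and 15 H3K4me1 peaks.

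Of the 10 genes 8, all but *Il6* and *Il33*, had at least 1 distal region with both marks in their windows, beside 61.4% of all protein-coding genes. Each region was counted where peaks of at least 2 of 3 replicates of each mark overlapped. Counted once, 45 such regions lay around the 10 genes, of 43644 in the genome, and 14 were met by all 6 lists. The median over all protein-coding genes was 1.00 per window, while *Il1r1* had 19, of which 6 lay inside *Il1rl2*. *Cxcl1* and *Csf1* had 8 each, with 1 at *Csf1* inside *Ahcyl1*, and *Cxcl5*, *Ccl2* and *Ccl7* had 4 each. *Lif* and *Cxcl12* had 1. The *Cxcl1* region at chr5:90898380-90899693 was nearest to the start of *Cxcl2*, and the *Csf1* region at chr3:107722662-107722892 to that of *Ahcyl1*. The count was 28 of 26429 in the genome without H3K27ac replicate 1 and 24 of 24536 without H3K27ac replicate 2. With peaks of −log10 p-value 1.3 or more it was 2 of 3923. The first, of 7557 bp, met the *Csf1* window for 1623 bp but lay inside *Ahcyl1*, whose start was the nearest. The other, of 260 bp, lay in the windows of *Ccl2* and *Ccl7*, inside *Gm17268* and nearest to the start of *Ccl2*.

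**Figure D3:**
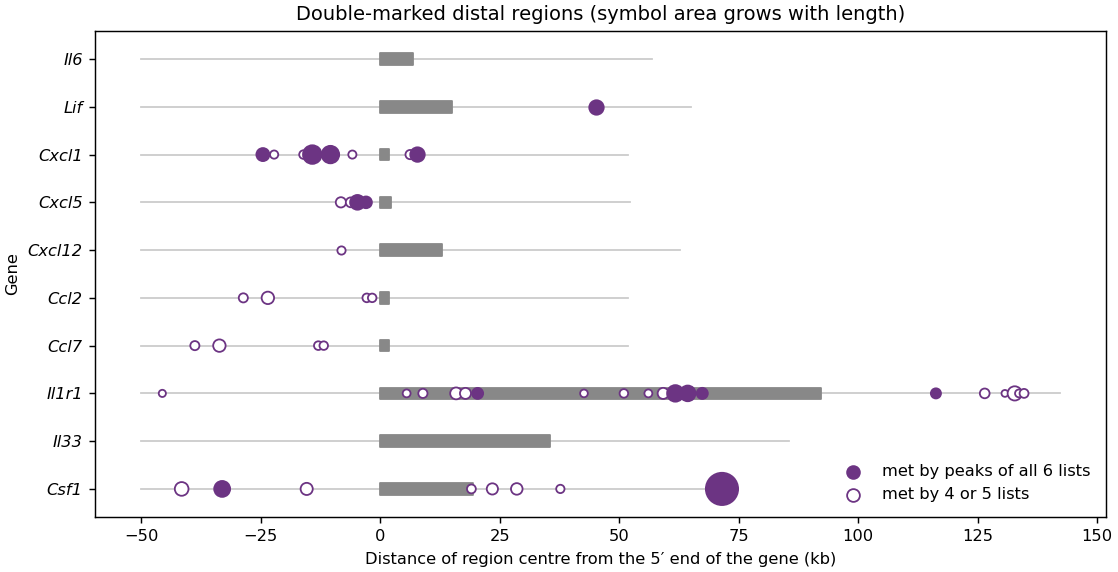
Centres of the distal regions with both marks along the windows of the 10 genes (distance from the 5′ end in kb, grey bars for gene bodies). Filled symbols were met by all 6 replicate lists: 5 at *Il1r1* (1 of them inside *Il1rl2*), 4 at *Cxcl1* (1 of them nearest to the start of *Cxcl2*), 2 at *Cxcl5*, 2 at *Csf1* (1 of them inside *Ahcyl1*) and 1 at *Lif*, with none at *Il6*, *Cxcl12*, *Ccl2*, *Ccl7* and *Il33*.

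To compare the marks over the whole neighbourhood, the share of each window covered by peaks was set side by side. H3K4me1 covered more than H3K27ac in every replicate list at *Lif*, *Cxcl12*, *Il1r1* and *Il33*, which is 4 of the 10 genes, beside 13.2% of all protein-coding genes. The reverse, H3K27ac above H3K4me1 in every replicate list, held for 0 of the 10, beside 18.3%. The median over the 10 genes was 5.17% for H3K27ac and 13.2% for H3K4me1, and over all genes 4.97% and 4.45%. In an exact two-sided permutation test of 3 lists against 3 the smallest p is 0.1, which these 4 genes reached, with 0.317 after Benjamini-Hochberg adjustment over all protein-coding genes. No gene could pass a threshold of 0.05. With peaks of −log10 p-value 1.3 or more the set of genes was another: every H3K4me1 list lay above every H3K27ac list at 3 of the 10 (*Lif*, *Il1r1* and *Csf1*), beside 6.84% of all genes, and the reverse held at 1, *Cxcl1*, beside 29.1%. The coverage ranges of the marks then overlapped at *Cxcl12* and *Il33*. There the difference of means, H3K27ac minus H3K4me1, was −0.580 and −1.65 percentage points, with exact permutation p of 0.700 and 0.400. At *Cxcl1* it was 7.26, with the smallest exact permutation p of 0.1.

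At *Lif* H3K27ac covered 5.96%, 1.90% and 2.43% of the window and H3K4me1 11.2%, 9.54% and 8.88%, a ratio of means of 2.88. At *Cxcl12* H3K27ac covered 1.44%, 2.14% and 0.454% and H3K4me1 5.73%, 5.56% and 3.23%, a ratio of means of 3.60. At *Il33* H3K27ac covered 3.35%, 2.63% and 1.69% and H3K4me1 9.97%, 8.62% and 6.32%, a ratio of 3.25. At *Il1r1* H3K27ac covered 15.0%, 15.7% and 9.92% and H3K4me1 22.2%, 26.2% and 20.9%. The means at *Il1r1* were 13.6% ± 3.16 and 23.1% ± 2.80 (SD, n = 3 lists each), a ratio of 1.70. In these genes the lowest H3K4me1 list lay above the highest H3K27ac list.

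At *Ccl2* H3K27ac covered 3.40%, 10.5% and 0.932% and H3K4me1 24.1%, 17.6% and 9.53%. *Ccl7*, with a largely shared window, had 4.90%, 10.5% and 0.746% and then 25.1%, 18.0% and 8.23%. At *Csf1* H3K27ac covered 15.5%, 19.7% and 12.2% and H3K4me1 33.6%, 28.3% and 18.5%. The coverage ranges of the marks overlapped in these genes because H3K4me1 replicate 3 fell below H3K27ac replicate 2. The exact permutation p was 0.200 for each, or 0.470 adjusted. Without H3K27ac replicate 2 there were 8 genes whose coverage ranges did not overlap. These were the 4 above with *Ccl2*, *Ccl7* and *Csf1*, where H3K4me1 was higher, and *Cxcl1*, where H3K27ac was higher. Over all protein-coding genes 17.1% then had every H3K4me1 list higher and 23.1% every H3K27ac list. Without H3K4me1 replicate 3 there were 7, with *Ccl2*, *Ccl7* and *Csf1* added, all with H3K4me1 higher, and over all genes the shares were 19.5% for H3K4me1 and 22.9% for H3K27ac.

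At *Cxcl1* H3K27ac covered 32.2%, 12.6% and 20.8% and H3K4me1 16.3%, 14.4% and 19.1%. At *Cxcl5* H3K27ac covered 24.9%, 8.45% and 11.9% and H3K4me1 12.9%, 10.7% and 5.43%. At *Il6* H3K27ac covered 5.30%, 3.52% and 2.43% and H3K4me1 4.87%, 2.79% and 1.11%. H3K27ac replicate 1 was the highest list in all 3 genes and the coverage ranges overlapped, with exact permutation p of 0.600, 0.500 and 0.600, or 0.859, 0.773 and 0.859 adjusted. Without that list the differences of means, H3K27ac minus H3K4me1, went from 5.27, 5.43 and 0.829 percentage points to 0.104, 0.542 and 0.0533.

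The marks were also compared between lists called against the same IgG library. Among the lists called against IgG 2, H3K4me1 (mean of 2 lists) covered more than H3K27ac at 10 of the 10 genes, beside 44.8% of all protein-coding genes. Against IgG 3 it did so at 7, the exceptions being *Il6*, *Cxcl1* and *Cxcl5*, beside 44.5%. In the lists with IgG 2 peaks covered at least 5.87% of the genome for H3K4me1 and 4.45% for H3K27ac, and with IgG 3 they covered 5.63% and 3.96%. At *Il1r1* the difference within IgG 2 was −8.50 and within IgG 3 −10.9 percentage points, and at *Csf1* −11.2 and −6.26. At *Cxcl1* it was −2.71 and 1.66, at *Cxcl5* −3.32 and 6.51 and at *Il6* −0.311 and 1.32. The part of the IgG library in these values was not tested.

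**Figure D4:**
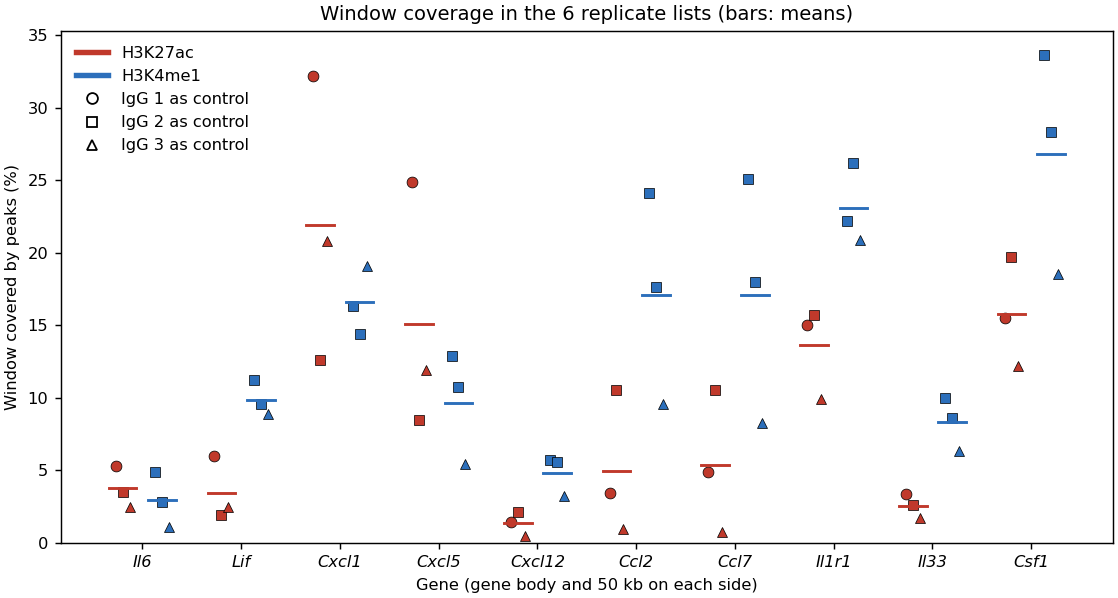
Percent of each gene's window covered by peaks in the 3 H3K27ac (red) and 3 H3K4me1 (blue) lists, with the mean as a bar and the shape giving the IgG library used as control. With all peaks the marks separate at *Lif*, *Cxcl12*, *Il1r1* and *Il33*, and H3K27ac replicate 1, the only list with IgG 1, is the highest point at *Il6*, *Cxcl1* and *Cxcl5*.

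The other genes of these pathways were taken from lists written by role. Among 13 signal transducers and inhibitors, all 13 had H3K27ac at a promoter in every replicate, and 7 had both marks in all 6 lists, beside 45.9% and 24.3% of all protein-coding genes. These were *Traf6*, *Nfkb1*, *Rela*, *Nfkbia*, *Nfkbiz*, *Tnfaip3* and *Zfp36*, which are NF-κB subunits, the adaptor that leads to them, their regulators and an mRNA decay factor. *Stat3* and *Socs3*, which act below gp130, had H3K27ac in 3 and H3K4me1 in 2 replicates. Of 11 receptors, 3 had both marks in all 6 lists, beside 24.3% of all genes. They were *Il6st*, which encodes gp130, *Il1rl1*, the IL-33 receptor, and *Il1r2*, the IL-1 decoy receptor. *Cxcr2* and *Csf1r*, receptors for CXCL1 and CXCL5 and for CSF1, had none, 2 of the 11 beside 32.8% of all genes. Of 20 other ligands and antagonists 0 were marked in all 6 lists, beside the same 24.3%, and 6 in none (*Il1b*, *Il11*, *Osm*, *Il34*, *Csf2* and *Ccl11*), beside 32.8%. H3K4me1 was present in all 3 replicates at 2 of them, *Cxcl10* and *Ccl8*, with H3K27ac in 2 and 1, beside 27.9% of all genes. Over the 44 genes together, 10 were marked in all 6 lists and 8 in none, beside the same 24.3% and 32.8% of all genes.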

How the data were processed

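Peaks from ChIC-Seq of H3K27ac and H3K4me1 were used, with 3 replicate lists and 1 pooled list for each mark. The submitters' processing notes name cutadapt, Bowtie2, MACS2 and GRCm38.p5, and versions other than that of MACS are not given in the sources used here. Per the file headers, the authors called broad paired-end peaks with MACS 2.2.7.1 at p-value cutoffs of 0.05 and 0.1 for strong and weak regions, scaling the larger library to the smaller. The deposited pileup is a coverage signal at IgG depth. The deposited fold enrichment is a ratio to the local background, and significance was deposited as −log10 of the p-value and q-value, each a mean over the broad region. IgG libraries entered only as controls.

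Gene models were GENCODE M21 on GRCm38, and all peaks ended within the chromosomes of the GRCm38.p6 reference. Promoters reached 1 kb to each side of protein-coding starts and windows 50 kb beyond the gene body. A peak was a promoter peak before an intragenic or flanking one. Coverage over the genome mean used an effective genome size of 2300000000 bp. Lists were compared by exact two-sided permutation over 20 assignments, and interval and permutation code was tested on simulated data. The alternatives were other windows, starts, peak filters, scalings, list subsets and a replicate block. All 10 genes are named, with genes of the role lists marked in all 6 lists or none, the longest distal region and the best promoter peak per gene, and neighbouring promoters. Other genes and regions named were chosen after their values were seen. The members and lists were chosen with earlier results of these data known. Scripts ran in Python 3.11.15 with pandas 2.3.3 and numpy 2.4.6.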

Additional observations from a re-analysis of the deposited data

How the results depend on the processing

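The calls were weak ones made against shallow IgG libraries, and the counts followed the peak threshold and single lists. With peaks of −log10 p-value 1.3 or more, genes with a promoter peak in all replicates numbered 1 for H3K27ac (4 as reported; over all genes the share went from 45.9% to 30.2%), 2 for H3K4me1 (5; 27.9% to 5.03%) and 1 for both marks (2; 24.3% to 3.98%), genes with none numbered 3 (0; 32.8% to 48.1%), distal regions with both marks 2 (45; 3923 and 43644 in the genome) and pathway genes marked in all 6 lists 2 (10). Promoter windows of 250 bp gave 2 for H3K27ac (39.0% of all genes) and 1 for both marks (10.1%), windows of 3 kb gave 4 for both marks (35.5%) and 16 pathway genes, and 200 bp of required cover gave 1 for both marks (20.4%) and 1 with none (34.6%). Distal regions numbered 76 with flanks of 100 kb, of the same 43644 in the genome. With all 3 lists of each mark they numbered 15, for which no genome count is given. Leaving out 1 list at a time gave 4 to 7 genes for H3K27ac (45.9% to 49.1% of all genes) and 5 to 6 for H3K4me1 (27.9% to 36.7%). It gave 2 to 5 for both marks (24.7% to 29.6%) and 0 to 2 with none (33.3% to 35.3%), with 2 without H3K27ac replicate 1. Separate window coverage held at 4 to 8 genes, and distal regions numbered 24 to 40. The 8 came without H3K27ac replicate 2, where 17.1% of all genes had every H3K4me1 list higher and 23.1% every H3K27ac list. The 24 came without the same list, of 24536 in the genome. Separate window coverage was found at 4 genes with the p-value filter too, but without *Cxcl12* and *Il33* and with *Csf1* and *Cxcl1*. With flanks of 100 kb the marks no longer separated at *Lif*, where the difference was −3.96 percentage points, and did so at *Ccl2* and *Ccl7*. The direction of the window difference was reversed only at *Il6* (−0.959 percentage points with peaks kept only at 5 or more times genome mean coverage, −0.0784 without H3K4me1 replicate 3, with −0.0784 to 1.80 over the lists left out), at *Cxcl5* (−0.392 with the p-value filter) and, within IgG 2, at *Il6* (−0.311), *Cxcl1* (−2.71) and *Cxcl5* (−3.32). The comparisons within an IgG library and without other genes' promoters were chosen after seeing the data. In all, leaving the block aside, 182 of 209 recomputed values kept their direction or stayed within 1.5 times, and the cause of the other changes was not tested.

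By the labels, replicates with the same number shared only that number, although lists 2 and 3 also shared an IgG control, and their deviations correlated at −0.09, 0.32 and 0.47 for numbers 1, 2 and 3, values that centring on the mean of a mark ties to each other. H3K27ac replicates 1 and 2 did not correlate best with their own number. With a replicate block the difference at *Il1r1* was −9.55 percentage points with an exact sign-flip p of 0.25, the smallest that 3 pairs allow, which 8 of the 10 genes reached (not *Cxcl5* and *Cxcl1*, at 0.500 and 0.750). The block leaves each difference of means as it was, so it says nothing of direction.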
